A study of Homo sapiens with 10 samples.

Results

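The genes described here are 83 of the 18404 genes measured in HEK-293 cells after knockdown of 2 long non-coding RNAs: the integrins, laminins and collagens, with fibronectin (FN1), spondin 1 (SPON1) and peroxidasin (PXDN). They were taken by symbol from the platform annotation, which gave 44 collagen symbols, 17 integrin alpha and 9 integrin beta symbols, 10 laminin chains and the 3 named genes. The set, these 3 genes included, was chosen with earlier results of these data known, so its calls may not be independent of the choice. One of the collagen symbols, COL18A1-AS1, is an antisense RNA of a collagen gene, and ITGBL1 is an integrin beta-like protein and not a receptor subunit. ITGA1 stood only on a probe set shared with another gene and was not used.

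Integrins are receptors made of 1 alpha and 1 beta subunit that hold cells to the extracellular matrix and signal through adaptor proteins at focal adhesions. Laminins, each a trimer of an alpha, a beta and a gamma chain, form basement membranes together with type IV collagen, which peroxidasin cross-links, and fibronectin is the ligand of several integrins. In the developing kidney the alpha 8 subunit, encoded by ITGA8, meets its ligand nephronectin, encoded by NPNT, during growth of the ureteric bud.

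The study asked about kidney-enriched long intergenic non-coding RNAs, and total RNA was hybridised to Affymetrix arrays 48 h after transient transfection with RNAiMax. HEK-293 is an established human embryonic kidney line that also carries some neuronal markers. There were 5 groups of 2 arrays: a negative control siRNA at 10 nM, siRNA 1 and siRNA 2 against LOC440173 (now LINC02893) at 10 nM each, the control siRNA at 100 nM, and 1 siRNA against PAXIP1-AS1 at 100 nM. All groups were the same cell line in the same medium, and every group, controls included, received an siRNA. The arrays of a group are labelled biological replicates, but nothing says that they came from separate cultures, so p-values measure the spread between these arrays, which may be technical. Each knockdown was transient, in 1 line, and PAXIP1-AS1 was targeted by a single siRNA, so effects of that RNA and of that siRNA cannot be told apart.

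The deposited values are log2 expression levels, and levels are compared here within a gene and never between genes, because probe sets differ in brightness. Array medians lay between 7.06 and 7.12. LINC02893 read 8.48 and 8.60 in the control 10 nM arrays, 7.72 and 7.43 with siRNA 1 and 6.71 and 6.59 with siRNA 2, which left 51.4% and 27.0% of the control level. PAXIP1-AS1 had no probe set under its own name in the annotation used, so its knockdown was not checked here. Of 8 HEK-293 markers, 6 stood at or above the median gene level of 7.66 in the controls and PAX2 and KRT8 stood below it, while none of the 5 fibroblast, 5 endothelial or 4 blood markers reached it. The 8 HEK-293 markers summed to 77.3 to 77.4 and 77.1 to 77.6 in the 10 nM and 100 nM controls, 75.9 to 76.1 with siRNA 1, 77.1 to 77.6 with siRNA 2 and 75.4 to 75.6 with the PAXIP1-AS1 siRNA, and 3, 6 and 2 of them were called with these siRNAs, among them the neurofilament genes NEFL (-1.07, -0.51 and -1.13) and NEFM (-0.77, 1.11 and -0.52). Of 5 markers of mesangial and smooth muscle cells, ACTA2 alone reached it. ACTA2 fell by 0.56 with siRNA 1, by 1.47 with siRNA 2 and by 1.85 with the PAXIP1-AS1 siRNA on the log2 scale, and the other 4 were not called. The summed log2 level of these 5 markers was 33.3 to 33.9 and 33.8 to 34.8 in the 10 nM and 100 nM controls, 33.7 to 34.0 with siRNA 1, 32.3 to 32.6 with siRNA 2 and 31.5 to 31.9 with the PAXIP1-AS1 siRNA. Of the endothelial markers, KDR and PECAM1, both dim, were called higher with siRNA 1, where the list summed to 27.1 to 27.2 against 25.7 to 26.5 in the control. Their part in the results below was not tested, and in bulk RNA fewer cells of a type and less RNA per cell cannot be told apart.

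With siRNA 1 against LOC440173, 16 members fell and 5 rose, against 16.7% of all genes lower and 12.1% higher. A gene is called here when its Benjamini-Hochberg adjusted p over all 18404 genes, from limma, was under 0.05. The falling members were the 3 glycoproteins and enzymes outside the families (SPON1, PXDN and FN1), 4 integrin alpha subunits, 3 integrin beta subunits, 2 laminin chains and 4 collagens. The share that fell, 16 of 83, was near the share of all genes, which were not matched by level. Of members at or above the median gene level 47.4% were called lower, against 26.6% of all genes there. Below that level 10.9% of members were called lower, against 6.79% of all genes. The median change was 0.06 over the members and 0.05 over all genes. The median was above 0 although most calls were lower. Of the 19 members whose mean level reached the median gene level, 12 were called, where 43.8% of all genes at that level were, and 9 of the 64 members below it were called, where 13.8% of all genes at that level were. The count was 32, with 17 higher and 15 lower, without control 10 nM replicate 1, and a further quantile normalization gave 3 higher and 20 lower in place of 5 and 16.

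With siRNA 2, 17 members fell and 3 rose, against 17.4% of all genes lower and 12.5% higher. The fallers were again FN1, SPON1 and PXDN, with 4 integrin alpha subunits, 2 integrin beta subunits, 4 laminin chains and 4 collagens. The median change was -0.04 over the members and 0.01 over all genes, and 10 of the 19 brighter members were called, where 47.1% of all genes at that level were. Of these brighter members 42.1% were called lower, against 26.9% of all genes at that level. Of the members below it 14.1% were called lower, against 7.91% of all genes. Both siRNAs were compared with the same 2 control arrays, so agreement between the 2 comparisons is not independent evidence, and their values are given side by side. Set directly against each other, siRNA 2 and siRNA 1 differed at 22 of the 83 members, 8 higher and 14 lower with siRNA 2, against 37.1% of all genes in either direction. That count was 14 and 13 without siRNA 1 replicate 1 and replicate 2.

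With the PAXIP1-AS1 siRNA, 5 members rose (ITGA8, ITGAV, LAMC1, LAMA4 and ITGB8) and LAMB1 fell, against 2.86% of all genes higher and 1.76% lower. No collagen and none of FN1, SPON1 and PXDN was called. The median change was -0.04 over the members and -0.01 over all genes. The 6 calls became 3, namely ITGA8, ITGAV and LAMC1, without any single array of the control 100 nM, PAXIP1-AS1 or siRNA 1 groups. The control siRNA at 100 nM against 10 nM gave 0 calls among the members and 0% of all genes in limma, and at an unadjusted p under 0.05 it gave 3 members and 692 genes.

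**Figure D1:**
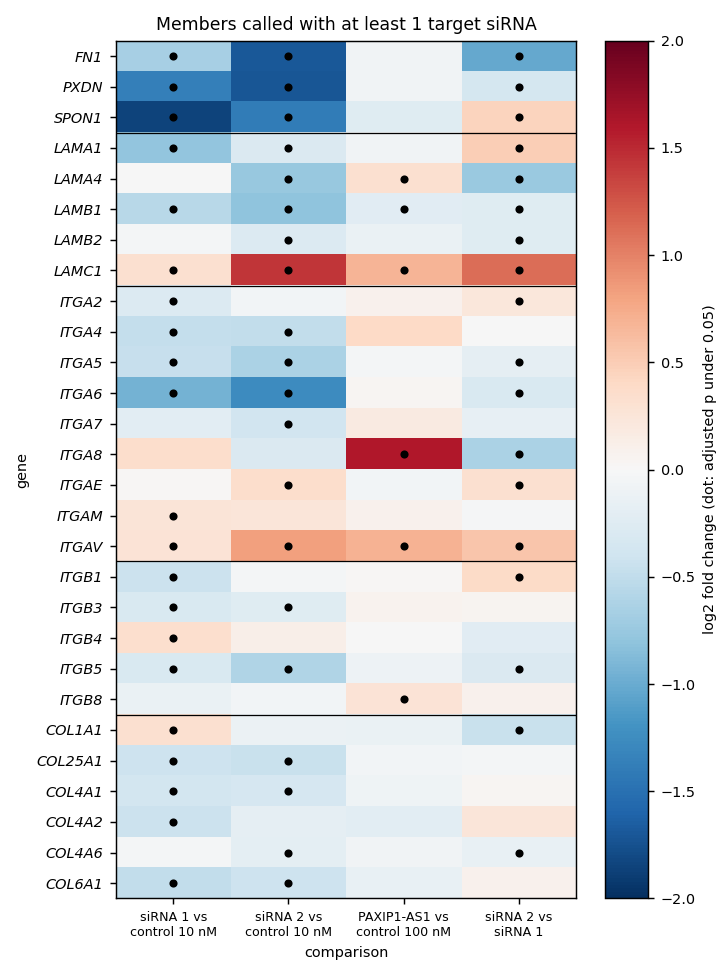
Log2 fold change (colour, red higher and blue lower, from -2 to 2) of the 28 members called with at least 1 target siRNA (rows, grouped as glycoproteins and enzyme, laminins, integrin alpha, integrin beta and collagens), in 4 comparisons (columns); a dot marks a limma adjusted p under 0.05. FN1, PXDN and SPON1 are blue with both LOC440173 siRNAs and pale with the PAXIP1-AS1 siRNA. LAMC1 and ITGAV are red with siRNA 2 and the PAXIP1-AS1 siRNA and pale red with siRNA 1 (changes of 0.31 and 0.28).

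FN1, the matrix glycoprotein that integrins bind through an RGD sequence, read 9.53 and 9.57 in the control 10 nM arrays, 8.84 and 8.91 with siRNA 1, 7.79 and 7.91 with siRNA 2, 9.50 and 9.52 in the control 100 nM arrays and 9.42 and 9.48 with the PAXIP1-AS1 siRNA. The 4 control arrays and the PAXIP1-AS1 arrays lay within a narrow band, siRNA 1 below it and siRNA 2 lowest, with no overlap between those 3 levels. FN1 fell by 0.67 (SE 0.059, n = 2 per group, limma adjusted p = 0.00014) with siRNA 1 and by 1.70 (adjusted p = 3.82e-06) with siRNA 2, which left 62.8% and 30.9% of the control. The siRNAs differed by -1.03 (adjusted p = 9.82e-06). With the PAXIP1-AS1 siRNA the change was -0.06, with a 95% interval from -0.20 to 0.07 and an adjusted p of 0.668.

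Promoter letters are shown for the members the results turn on, from RefSeq on GRCh38.p14, as the 250 bases before the start of the gene, 5′ to 3′ on the gene's strand. Windows were found for 59 of the 83 members. Capitals mark 4 motifs searched on both strands: the GC box GGGCGG, the CCAAT box CCAAT, the TATA box TATAAA and the cAMP response element TGACGTCA, and overlapping GC boxes run together. Of all 35116 windows in the table, 42.6% hold a GC box, 32.0% a CCAAT, 10.7% a TATAAA and 1.6% a TGACGTCA. FN1 lies on the minus strand at chr2:215436069-215436318, LAMC1 on the plus strand at chr1:183023170-183023419 and ITGA8 on the minus strand at chr10:15719923-15720172. The letters are a description and no factor was measured.
FN1: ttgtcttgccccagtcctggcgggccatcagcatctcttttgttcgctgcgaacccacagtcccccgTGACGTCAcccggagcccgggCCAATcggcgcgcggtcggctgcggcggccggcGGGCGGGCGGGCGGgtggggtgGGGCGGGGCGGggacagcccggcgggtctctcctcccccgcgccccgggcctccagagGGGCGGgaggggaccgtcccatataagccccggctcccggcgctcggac
LAMC1: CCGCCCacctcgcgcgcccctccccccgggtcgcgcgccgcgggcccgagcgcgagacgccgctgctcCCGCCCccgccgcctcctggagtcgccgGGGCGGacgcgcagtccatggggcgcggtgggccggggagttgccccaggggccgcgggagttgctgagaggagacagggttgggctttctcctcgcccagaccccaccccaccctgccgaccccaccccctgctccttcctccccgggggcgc
ITGA8: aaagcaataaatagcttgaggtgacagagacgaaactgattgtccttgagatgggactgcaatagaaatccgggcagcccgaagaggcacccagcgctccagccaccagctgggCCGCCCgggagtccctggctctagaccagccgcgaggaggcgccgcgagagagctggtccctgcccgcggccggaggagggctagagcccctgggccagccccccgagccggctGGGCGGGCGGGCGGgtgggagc

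The FN1 window held 6 GC boxes, 1 CCAAT 162 bases before the start and 1 TGACGTCA 183 bases before it. The LAMC1 window, of the gene that rose while FN1 fell, held 3 GC boxes and the ITGA8 window held 4, and neither held the other 3 motifs.

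SPON1, a secreted matrix protein first described in the floor plate of the neural tube, read 8.06 and 8.11 in the control 10 nM arrays, 6.17 and 6.30 with siRNA 1, 6.68 and 6.69 with siRNA 2, 8.12 and 7.85 in the control 100 nM arrays and 7.65 and 7.85 with the PAXIP1-AS1 siRNA. All 4 LOC440173 siRNA arrays lay below all other arrays. It fell by 1.85 (SE 0.10, limma adjusted p = 1.88e-05) with siRNA 1, the largest fall among the 83 members there, and by 1.40 (adjusted p = 4.82e-05) with siRNA 2. The 2 siRNAs differed by 0.45 (adjusted p = 0.00802), a difference not called without siRNA 1 replicate 1 (adjusted p = 0.0602). With the PAXIP1-AS1 siRNA the change was -0.24 (adjusted p = 0.26), and one control array lay level with one PAXIP1-AS1 array.

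PXDN, the enzyme that forms sulfilimine cross-links in type IV collagen, read 8.75 and 8.81 in the control 10 nM arrays, 7.36 and 7.47 with siRNA 1, 7.05 and 7.08 with siRNA 2, 8.76 and 8.74 in the control 100 nM arrays and 8.61 and 8.74 with the PAXIP1-AS1 siRNA. The LOC440173 siRNA arrays again lay apart from the other 6. PXDN fell by 1.36 (SE 0.066, limma adjusted p = 1.35e-05) with siRNA 1 and fell by 1.71 (adjusted p = 5.1e-06) with siRNA 2, to 38.9% and 30.5% of the control. With the PAXIP1-AS1 siRNA the change was -0.08 (95% interval -0.23 to 0.07). The siRNA 2 level was lower than the siRNA 1 level by 0.35 on the log2 scale (adjusted p = 0.00347).

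Among the 10 laminin chains, LAMC1 was called higher with all 3 target siRNAs and LAMB1 lower with all 3. LAMC1, the gamma chain of most laminin trimers, read 9.47 and 9.49 in the control 10 nM arrays, 9.82 and 9.76 with siRNA 1, 10.91 and 10.92 with siRNA 2, 9.57 and 9.44 in the control 100 nM arrays and 10.21 and 10.16 with the PAXIP1-AS1 siRNA. Every target siRNA array lay above all 4 control arrays. It rose by 0.31 (SE 0.058, limma adjusted p = 0.00495) with siRNA 1, by 1.44 (adjusted p = 6.05e-06) with siRNA 2 and by 0.68 (adjusted p = 0.00126) with the PAXIP1-AS1 siRNA, which is 1.24-fold, 2.71-fold and 1.60-fold. The rise was larger by 1.12 with siRNA 2 than with siRNA 1 (adjusted p = 5.92e-06).

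LAMB1, the beta chain that pairs with LAMC1 in many basement membranes, read 9.38 and 9.40 in the control 10 nM arrays, 8.83 and 8.83 with siRNA 1, 8.56 and 8.60 with siRNA 2, 9.44 and 9.39 in the control 100 nM arrays and 9.18 and 9.20 with the PAXIP1-AS1 siRNA. It was lower in all 6 target siRNA arrays than in any control array. The falls were 0.56 (limma adjusted p = 0.00011), 0.81 (adjusted p = 2.05e-05) and 0.23 (adjusted p = 0.0367), and the siRNAs against LOC440173 differed by -0.25 (adjusted p = 0.00371). The PAXIP1-AS1 call was lost without any single array of the control 100 nM or PAXIP1-AS1 groups (adjusted p = 0.122 to 0.204) or of either LOC440173 siRNA group (adjusted p = 0.0538 to 0.0757).

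LAMA1, an alpha chain of embryonic basement membranes, read 7.66 and 7.67 in the control 10 nM arrays, 6.88 and 6.87 with siRNA 1, 7.33 and 7.42 with siRNA 2, 7.64 and 7.64 in the control 100 nM arrays and 7.58 and 7.57 with the PAXIP1-AS1 siRNA. Its order differed from that of FN1 and LAMB1, because siRNA 1 lay lowest. It fell by 0.79 (SE 0.049, limma adjusted p = 3.24e-05) and by 0.29 (adjusted p = 0.00291), and the siRNAs differed by 0.50 (adjusted p = 0.000118). The siRNA 2 call was lost when the fit held no other group (adjusted p = 0.0627).

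LAMA4, an alpha chain known from vessel and muscle basement membranes, read 7.71 and 7.75 in the control 10 nM arrays, 7.69 and 7.73 with siRNA 1, 6.94 and 6.99 with siRNA 2, 7.60 and 7.73 in the control 100 nM arrays and 7.97 and 8.01 with the PAXIP1-AS1 siRNA. With siRNA 1 the arrays lay among the controls, with siRNA 2 below them and with the PAXIP1-AS1 siRNA above them. The changes were -0.01 (95% interval -0.15 to 0.12), -0.76 (limma adjusted p = 6.36e-05) and 0.32 (adjusted p = 0.0229), and the LOC440173 siRNAs differed by -0.75 (adjusted p = 3.54e-05). The PAXIP1-AS1 call was lost without any single array of the 2 groups compared (adjusted p = 0.0541 to 0.172) or without either siRNA 1 array (adjusted p = 0.0508).

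LAMB2, the beta chain of mature kidney basement membranes, read 8.72 and 8.65 in the control 10 nM arrays, 8.63 and 8.66 with siRNA 1 and 8.48 and 8.33 with siRNA 2, and was called with siRNA 2 alone (-0.28, limma adjusted p = 0.0123). That call was lost in a fit on the compared groups alone (adjusted p = 0.101) or after a further quantile normalization (adjusted p = 0.0557). It was also lost without control 10 nM replicate 1 (change of -0.24) or siRNA 2 replicate 2 (change of -0.20). The other 5 chains (LAMA2, LAMA5, LAMB3, LAMB4 and LAMC3) were not called against control with any siRNA. LAMA5, the one of these at a level above the median gene, ranged from 7.81 to 8.11 over the 10 arrays.

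**Figure D2:**
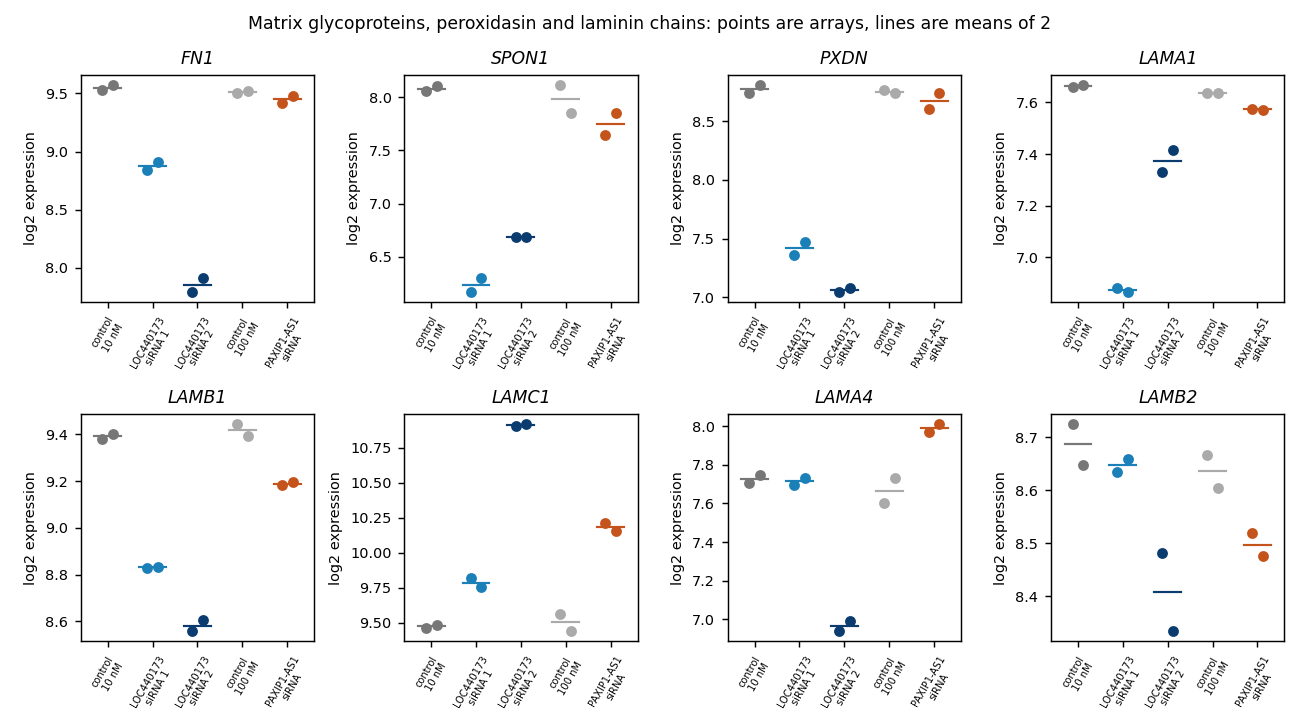
Log2 expression (vertical axis, its range differs between panels) of FN1, SPON1, PXDN and 5 laminin chains in the 5 groups (horizontal axis); points are arrays and lines are means of 2. FN1, SPON1, PXDN and LAMB1 lie lower in the LOC440173 siRNA arrays than in the controls, while LAMC1 lies higher and reaches 10.92 with siRNA 2.

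Among the integrin alpha subunits the largest change was a rise of ITGA8 with the PAXIP1-AS1 siRNA. ITGA8 read 6.42 and 6.30 in the control 100 nM arrays and 7.89 and 8.04 with the PAXIP1-AS1 siRNA, against 6.34 and 6.70 in the control 10 nM arrays, 6.85 and 6.88 with siRNA 1 and 6.18 and 6.29 with siRNA 2. The PAXIP1-AS1 arrays stood more than 1 log2 unit above every other array, and in those arrays alone did ITGA8 pass the median gene level of 7.66. The rise was 1.60 (SE 0.115, 95% interval 1.34 to 1.87, limma adjusted p = 0.000626), or 3.04-fold. With siRNA 1 the change was 0.35 (adjusted p = 0.0568) and with siRNA 2 it was -0.28 (adjusted p = 0.109), neither called in the fit on all arrays, while siRNA 2 against siRNA 1 was called at -0.63 (adjusted p = 0.00306). The 2 control 10 nM arrays were apart for this gene, and without replicate 2 the siRNA 1 change was called (adjusted p = 0.00789), while without replicate 1 the siRNA 2 change was called (adjusted p = 0.0114). The siRNA 1 change was also called with a robust prior that follows intensity (adjusted p = 0.0474). The mesangial and smooth muscle marker ACTA2 fell by 1.85 on the log2 scale in the same comparison. It was the 1 marker called of 5 in its list, and its relation to ITGA8 was not tested.

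ITGAV, the alpha subunit of the vitronectin receptor and of several receptors for fibronectin, read 9.01 and 9.07 in the control 10 nM arrays, 9.31 and 9.34 with siRNA 1, 9.90 and 9.84 with siRNA 2, 8.92 and 8.95 in the control 100 nM arrays and 9.62 and 9.66 with the PAXIP1-AS1 siRNA. All 6 target siRNA arrays lay above all 4 control arrays. The rises were 0.28 (limma adjusted p = 0.0045), 0.83 (adjusted p = 2.47e-05) and 0.70 (adjusted p = 0.000663), and siRNA 2 exceeded siRNA 1 by 0.55 (adjusted p = 8.76e-05). Over the 10 arrays ITGAV was the member whose pattern was most like that of LAMC1 (Pearson r = 0.95), followed by ITGAE (0.77), ITGAM (0.57), LAMB3 (0.53) and COL12A1 (0.46). These values share the groups and the arrays and are a description only.

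ITGA6, which forms laminin receptors with ITGB1 or ITGB4, read 8.90 and 9.05 in the control 10 nM arrays, 8.005 and 8.05 with siRNA 1, 7.62 and 7.82 with siRNA 2, 8.96 and 9.09 in the control 100 nM arrays and 9.004 and 9.13 with the PAXIP1-AS1 siRNA. The LOC440173 siRNA arrays lay far below the rest. Of the PAXIP1-AS1 arrays 1 lay among the controls and 1, at 9.13, just above them. ITGA6 fell by 0.95 (SE 0.090, limma adjusted p = 0.0002) and by 1.26 (adjusted p = 4.83e-05), to 51.8% and 41.8% of the control. The difference of -0.31 between the siRNAs (adjusted p = 0.0287) was lost without siRNA 1 replicate 1 (adjusted p = 0.0848), siRNA 1 replicate 2 (adjusted p = 0.128) or siRNA 2 replicate 1 (adjusted p = 0.146).

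ITGA5, the alpha subunit of the main fibronectin receptor, read 8.55 and 8.55 in the control 10 nM arrays, 8.11 and 8.09 with siRNA 1 and 7.85 and 7.98 with siRNA 2, against 8.48 and 8.54 in the control 100 nM arrays and 8.49 and 8.47 with the PAXIP1-AS1 siRNA. It fell with FN1 in both LOC440173 comparisons, by 0.46 (limma adjusted p = 0.000767) and by 0.64 (adjusted p = 0.000132). ITGA4, another subunit of fibronectin receptors and dim on these arrays, read 6.27 and 6.32 in the control 10 nM arrays, 5.92 and 5.71 with siRNA 1, 5.91 and 5.71 with siRNA 2, 6.46 and 6.37 in the control 100 nM arrays and 6.75 and 6.85 with the PAXIP1-AS1 siRNA. It fell by 0.48 (adjusted p = 0.00565) and by 0.49 (adjusted p = 0.00489), and the change of 0.39 with the PAXIP1-AS1 siRNA was not called (adjusted p = 0.0556).

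Of the other alpha subunits, ITGA2, a collagen receptor subunit, was called lower with siRNA 1 (-0.28, limma adjusted p = 0.0126), ITGAM higher with siRNA 1 (0.26, adjusted p = 0.0453), ITGA7 lower (-0.39, adjusted p = 0.0128) and ITGAE higher (0.35, adjusted p = 0.018) with siRNA 2. None of these 4 calls held in every alternative. ITGA2 was lost without control 10 nM replicate 2 (adjusted p = 0.0687), siRNA 1 replicate 1 (0.0688) or siRNA 1 replicate 2 (0.0615), and ITGAM without any single array but control 10 nM replicate 1 (adjusted p = 0.0572 to 0.196). ITGA7 was lost without siRNA 2 replicate 2 (adjusted p = 0.0641), and ITGAE without control 10 nM replicate 1 (0.0884) or siRNA 2 replicate 1 (0.0975).

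Among the beta subunits, ITGB1, the partner of most alpha subunits named here, read 9.06 and 9.22 in the control 10 nM arrays, 8.79 and 8.64 with siRNA 1, 9.06 and 9.14 with siRNA 2, 9.18 and 9.09 in the control 100 nM arrays and 9.19 and 9.12 with the PAXIP1-AS1 siRNA. Only the siRNA 1 arrays lay apart from the rest. ITGB1 fell by 0.43 (SE 0.079, limma adjusted p = 0.00481) with siRNA 1, changed by -0.04 (95% interval -0.22 to 0.14) with siRNA 2, and the siRNAs differed by 0.39 (adjusted p = 0.00525). With the PAXIP1-AS1 siRNA, in which its partner ITGA8 rose, the ITGB1 change was 0.02 (95% interval -0.16 to 0.20).

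ITGB5, a partner of ITGAV, read 8.71 and 8.73 in the control 10 nM arrays, 8.44 and 8.38 with siRNA 1, 8.05 and 8.19 with siRNA 2, 8.77 and 8.75 in the control 100 nM arrays and 8.61 and 8.70 with the PAXIP1-AS1 siRNA. It fell by 0.31 (limma adjusted p = 0.00707) and by 0.60 (adjusted p = 0.000249), so it moved opposite to ITGAV with both LOC440173 siRNAs, and the first call was lost without siRNA 1 replicate 2 (adjusted p = 0.054). ITGB3, the other classical partner of ITGAV and dim here, fell by 0.30 (adjusted p = 0.0021) and by 0.25 (adjusted p = 0.005), from 5.57 and 5.54 in the control arrays to 5.27 and 5.24 with siRNA 1 and to 5.31 and 5.31 with siRNA 2. Its siRNA 2 call was lost when the fit held no other group (adjusted p = 0.0809) and with an intensity trend and robust prior (adjusted p = 0.0803).

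ITGB8, also a partner of ITGAV, read 5.67 and 5.79 in the control 100 nM arrays and 6.03 and 5.98 with the PAXIP1-AS1 siRNA, a rise of 0.27 (limma adjusted p = 0.0362) at a dim level. The call was lost without any single array of the control 100 nM or PAXIP1-AS1 groups (adjusted p = 0.0754 to 0.207) or of the LOC440173 siRNA groups (0.0567 to 0.0687). ITGB4 was called higher with siRNA 1 (0.34, adjusted p = 0.0493), and the call was lost without any single array but control 10 nM replicate 1 (adjusted p = 0.0507 to 0.246).

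**Figure D3:**
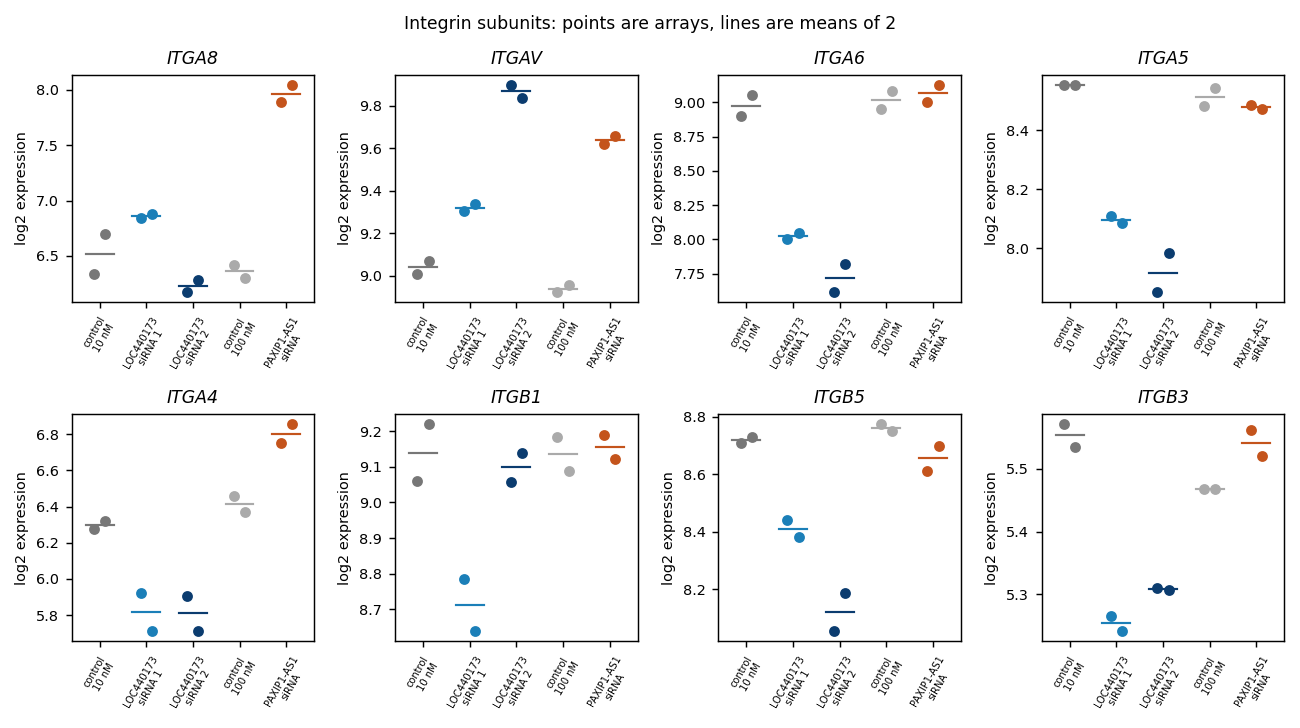
Log2 expression (vertical axis, its range differs between panels) of 8 integrin subunits in the 5 groups (horizontal axis); points are arrays and lines are means of 2. ITGA8 is high in the PAXIP1-AS1 siRNA arrays (7.89 and 8.04), ITGAV is above the controls with all 3 target siRNAs, and ITGA6, ITGA5, ITGA4, ITGB5 and ITGB3 are below them with both LOC440173 siRNAs.

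Of the 44 collagen symbols, 5 were called with siRNA 1, 4 with siRNA 2 and 0 with the PAXIP1-AS1 siRNA, where 28.8%, 30.0% and 4.62% of all genes and 13.8%, 12.8% and 1.40% of the genes below the median level were called. COL6A1, a chain of the microfibrillar type VI collagen, read 8.67 and 8.46 in the control 10 nM arrays, 8.002 and 8.12 with siRNA 1, 8.13 and 8.16 with siRNA 2, 8.68 and 8.60 in the control 100 nM arrays and 8.49 and 8.49 with the PAXIP1-AS1 siRNA. The LOC440173 siRNA arrays lay below all others, and siRNA 2 and siRNA 1 differed by 0.08 (95% interval -0.10 to 0.26). It fell by 0.50 (limma adjusted p = 0.00231) and by 0.42 (adjusted p = 0.00496), the second call being lost when the fit held no other group (adjusted p = 0.0506).

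COL4A1 and COL4A2 encode the chains of the main type IV collagen of basement membranes and are transcribed away from each other from starts 126 bases apart. The interval between these starts is shown because both genes share it, as RefSeq gives it on GRCh38.p14 at chr13:110307158-110307283, plus strand, with capitals as above. It held 1 CCAAT and 1 GC box, which 21.1% and 34.6% of all windows cut to this length hold.
COL4A1-COL4A2: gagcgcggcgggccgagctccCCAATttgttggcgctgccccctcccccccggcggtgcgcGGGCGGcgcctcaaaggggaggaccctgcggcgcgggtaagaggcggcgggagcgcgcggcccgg

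COL4A1 read 6.96 and 6.84 in the control 10 nM arrays, 6.43 and 6.63 with siRNA 1 and 6.63 and 6.50 with siRNA 2. COL4A2 read 7.53 and 7.41, then 7.16 and 6.92, then 7.33 and 7.25 in the same groups. Both genes were lower in the siRNA arrays than in the control arrays, by 0.37 (limma adjusted p = 0.0126) and 0.43 (adjusted p = 0.00755) on the log2 scale with siRNA 1, and with siRNA 2 COL4A1 fell by 0.34 (adjusted p = 0.0175) while the change of -0.18 of COL4A2 was not called (adjusted p = 0.168). Both COL4A1 calls were lost in a fit on the compared groups alone (limma adjusted p = 0.0546 and 0.0702), and the siRNA 2 call with array weights (0.0579). Both were also lost without control 10 nM replicate 1 (changes of -0.31 and -0.27). The siRNA 1 call was lost without siRNA 1 replicate 1 (change of -0.27) and the siRNA 2 call without siRNA 2 replicate 2 (change of -0.27).

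COL25A1, a membrane collagen of neurons, fell with both siRNAs, by 0.41 (limma adjusted p = 0.00231) and by 0.45 (adjusted p = 0.00129), from 7.21 and 7.23 in the control arrays to 6.86 and 6.77 and to 6.83 and 6.72. COL1A1, a chain of the fibrillar type I collagen, was called higher with siRNA 1 (0.33, adjusted p = 0.0383), at 8.37 and 8.21 against 8.07 and 7.86, and lower with siRNA 2 than with siRNA 1 (-0.44, adjusted p = 0.00805). The first COL1A1 call was lost without control 10 nM replicate 2 (adjusted p = 0.195), siRNA 1 replicate 1 (0.208), siRNA 1 replicate 2 (0.055) or either PAXIP1-AS1 array (0.0593), and the second without siRNA 1 replicate 1 (0.0624) or siRNA 2 replicate 2 (0.0506). COL4A6, another type IV chain, fell by 0.20 with siRNA 2 (adjusted p = 0.0169). That call was lost with a robust prior that follows intensity (0.150) and in a fit on the compared groups alone (0.139). It was also lost with array weights (0.0504). Leaving out control 10 nM replicate 1, control 10 nM replicate 2 or siRNA 2 replicate 2 lost it too, with changes of -0.20, -0.19 and -0.17.

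Altogether 28 of the 83 members were called with at least 1 of the 3 siRNAs, where 44.7% of all genes were, and 55 with none. The 55 had a median level of 6.16 over all arrays, below the median gene, and their changes lay between -0.17 and 0.44 with siRNA 1, between -0.21 and 0.25 with siRNA 2 and between -0.27 and 0.16 with the PAXIP1-AS1 siRNA. LAMC1 and ITGAV were called higher with all 3 siRNAs and LAMB1 lower with all 3. How many of all genes were called the same way with all 3 was not counted, and both LOC440173 comparisons share their control arrays. The LAMB1 call with the PAXIP1-AS1 siRNA was lost in a fit on the arrays of that comparison alone (limma adjusted p = 0.114).

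The LOC440173 and PAXIP1-AS1 effects have separate controls, and the difference between the effects was tested. Against siRNA 1 it was called for 17 of 83 members, all with the PAXIP1-AS1 effect higher, and for 16.8% of all genes in either direction, 2029 higher and 1071 lower. Without control 10 nM replicate 1 the 17 became 28, with 16 higher and 12 lower, and without either PAXIP1-AS1 array they became 11. Against siRNA 2 it was called for 16 members, 14 higher and 2 lower, and for 17.2% of all genes, 2056 higher and 1112 lower. The FN1 difference was 0.61 (limma adjusted p = 0.00264) against siRNA 1 and 1.63 (adjusted p = 6.33e-05) against siRNA 2. The ITGA8 difference was 1.26 (adjusted p = 0.002) and 1.89 (adjusted p = 0.000315). The LAMC1 effect of the PAXIP1-AS1 siRNA was larger than that of siRNA 1 by 0.37 (adjusted p = 0.0198) and its difference from that of siRNA 2 was -0.76 (adjusted p = 0.000805). The first of these LAMC1 differences was lost without control 10 nM replicate 2 (0.0517), siRNA 1 replicate 2 (0.076), control 100 nM replicate 2 (0.0621), PAXIP1-AS1 replicate 1 (0.0771) or PAXIP1-AS1 replicate 2 (0.0544).

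Of 116 other matrix and adhesion genes in 4 lists, 42 fell and 7 rose with siRNA 1, 42 fell and 9 rose with siRNA 2, and 3 fell and 7 rose with the PAXIP1-AS1 siRNA, with median changes of -0.05, -0.10 and -0.03 over the lists. Over all genes 16.7% fell and 12.1% rose with siRNA 1, 17.4% fell and 12.5% rose with siRNA 2, and 1.76% fell and 2.86% rose with the PAXIP1-AS1 siRNA. The lists were not matched to all genes by level. Among 39 basement membrane and other matrix proteins 13 fell and 1 rose with siRNA 1 and 11 fell and 1 rose with siRNA 2. FBLN5, which helps assemble elastic fibres, fell by 1.22 (limma adjusted p = 1.07e-05) with siRNA 1 and by 1.13 (adjusted p = 1.02e-05) with siRNA 2. NID1, which links laminin to type IV collagen by binding the LAMC1 chain, fell by 1.03 (adjusted p = 3.45e-05) with siRNA 1, and siRNA 2 exceeded siRNA 1 by 1.05 (adjusted p = 1.26e-05). Its relative NID2 fell by 0.86 with siRNA 1 (adjusted p = 0.000403), and SPARC, a collagen-binding matrix protein, fell by 1.25 with siRNA 2 (adjusted p = 5.19e-05). FREM2, a basement membrane protein of the Fraser complex in kidney development, rose by 0.95 with siRNA 2 (adjusted p = 5.34e-05) and exceeded its siRNA 1 level by 1.36 (adjusted p = 5.92e-06).

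Among 30 genes of collagen and matrix processing 10 fell and 3 rose with siRNA 1, 13 fell and 2 rose with siRNA 2, and 4 rose with the PAXIP1-AS1 siRNA, where 16.7% of all genes fell and 12.1% rose, 17.4% fell and 12.5% rose, and 2.86% rose. LOX, which cross-links collagen and elastin, fell by 1.03 with siRNA 1 (limma adjusted p = 3.67e-05), and P4HA2, a subunit of collagen prolyl hydroxylase, fell by 1.06 with siRNA 2 (adjusted p = 1.38e-05). The P4HA2 level was also called lower with siRNA 2 than with siRNA 1 (adjusted p = 6.42e-06). PCOLCE, which speeds the cleavage of procollagen, rose by 0.68 with siRNA 1 (adjusted p = 0.00344), and its level with siRNA 2 was lower than with siRNA 1 by 1.15 (adjusted p = 0.000135). PLOD2, a collagen lysyl hydroxylase, rose by 0.66 with the PAXIP1-AS1 siRNA (adjusted p = 0.00345) and kept its call without each single array.

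Among 16 other matrix receptors 7 fell and 1 rose with siRNA 1 and 7 fell and 3 rose with siRNA 2, and among 31 integrin adaptors 12 fell and 2 rose, then 11 fell and 3 rose, where 16.7% of all genes fell and 12.1% rose with siRNA 1 and 17.4% fell and 12.5% rose with siRNA 2. The tetraspanin CD81, which associates with integrins, fell by 1.12 with siRNA 2 (limma adjusted p = 6.96e-06). Its level was also called lower with siRNA 2 than with siRNA 1 (adjusted p = 3.26e-06). CD9, another tetraspanin, rose by 0.36 with siRNA 1 (adjusted p = 0.00188). The adaptor genes that rose with siRNA 2 were PTK2, the focal adhesion kinase, by 0.44 (adjusted p = 0.000328), TLN2, a talin that binds integrin tails, by 0.41 (adjusted p = 0.000692), and FERMT2, a kindlin, by 0.35 (adjusted p = 0.00205). The changes of TLN2 and FERMT2 with siRNA 1 were -0.43 and -0.21.

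NPNT, the nephronectin ligand of the ITGA8 receptor, read 7.60 and 7.67 in the control 100 nM arrays and 8.09 and 8.04 with the PAXIP1-AS1 siRNA, against 7.37 and 7.60 in the control 10 nM arrays, 7.10 and 7.09 with siRNA 1 and 6.88 and 6.88 with siRNA 2. The PAXIP1-AS1 arrays were the highest and the siRNA 2 arrays the lowest. It rose by 0.43 with the PAXIP1-AS1 siRNA (limma adjusted p = 0.0229), in the comparison in which ITGA8 rose. The call was lost without any single array of the 2 groups compared (adjusted p = 0.0946 to 0.151) or without either siRNA 1 array (adjusted p = 0.0527). The rises of FREM2 (0.38) and PCOLCE2 (0.40) and the falls of GPC3 (-0.37), NID1 (-0.32) and PARVB (-0.26) in the same comparison were each lost without any single array of the 2 groups compared (adjusted p = 0.0652 to 0.219), and those of FREM2, NID1 and PARVB also without LOC440173 siRNA arrays (0.0555 to 0.0868).

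**Figure D4:**
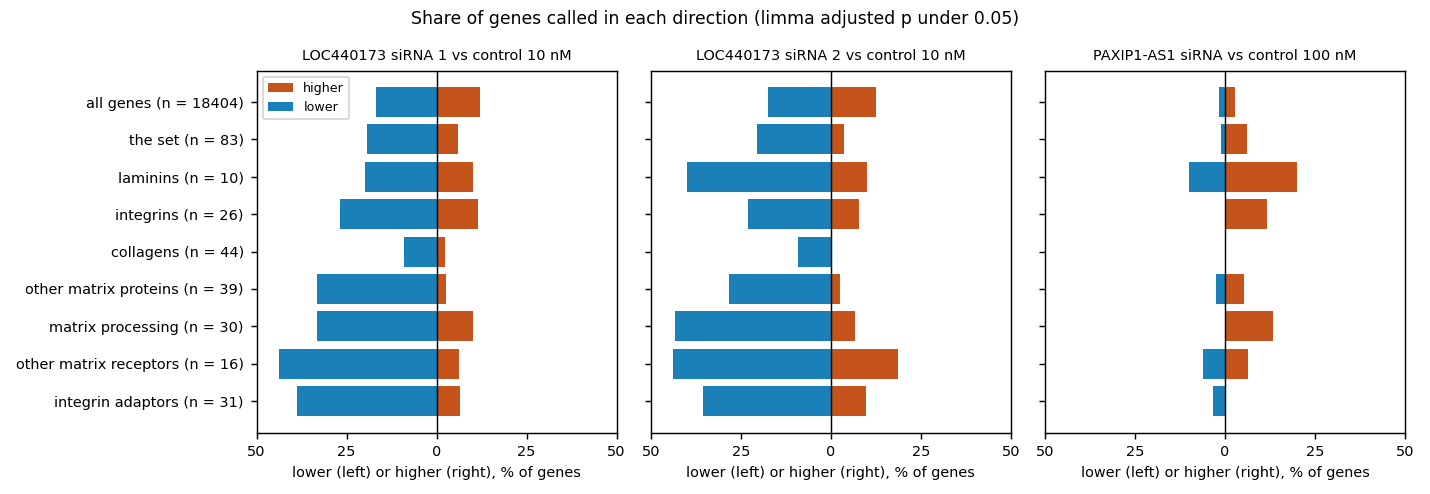
Share of genes called lower (bars to the left, blue) and higher (bars to the right, orange), in percent of the genes measured in each set (rows), for 3 comparisons (panels); the horizontal axis counts outward from 0 on both sides. In both LOC440173 panels the 4 lists of other matrix and adhesion genes have longer lower bars than the set of 83, whose lower bars are near that of all 18404 genes. The sets were not matched by level. Of all genes at or above the median level 26.6% and 26.9% were called lower with siRNA 1 and siRNA 2, and of those below it 6.79% and 7.91%. Of the set of 83 the same shares were 47.4% and 42.1% at or above that level and 10.9% and 14.1% below it.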

How the data were processed

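Total RNA from 10 HEK-293 samples, 2 in each of 5 groups, was measured on Affymetrix arrays, and the authors deposited log2 expression values made with RMA, per the submitters' processing notes, which also name limma but no versions. RMA corrects background, normalizes between arrays by quantiles and summarises probes, so a shift common to all genes is removed and low values are compressed. Of 32321 probe sets, 19158 carry 1 gene symbol in the platform annotation, 1388 carry several and 11775 are not listed. The brightest single-symbol probe set stood for each of 18404 genes, and of the members only COL11A2 had more than 1. All 83 members were found in RefSeq by gene identifier. One limma fit (limma 3.58.1, R 4.3.3) with 5 group means, eBayes and Benjamini-Hochberg adjustment over all genes was made on all 10 arrays. Fold changes are differences of group means on the log2 scale, with 95% intervals from the fit, and "level" means the deposited log2 value. The calling step was tested on simulated data with noise drawn independently for each array. That test therefore does not cover the correlation between arrays of the same replicate number described below. With 2 arrays against 2, an exact two-sided permutation test cannot go below p = 0.333, so no single-gene permutation test was used, and the number of arrays limits the precision.

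The members and lists were chosen with earlier results of these data known. Named members were up to 8 largest rises and 8 largest falls per comparison among called members whose groups did not overlap and whose higher group mean reached the median of all genes, together with FN1, SPON1, PXDN, ITGA8, LAMC1, ITGB1 and the laminin chains. From the lists of other matrix and adhesion genes up to 4 rises and 4 falls were chosen by the same rule. The remaining members called against control were named after their values were seen. The rule also gave COL6A2, GPC6 and VCAN between the LOC440173 siRNAs (limma adjusted p = 0.0449, 3.73e-06 and 6.35e-06) and ITGB3BP and SHARPIN with siRNA 1, which are not described. ITGA2B, COL12A1 and COL5A2, called between those siRNAs and not against control, had no changes described either. Of the genes fixed for those lists 39 of 41, 30 of 31, 16 of 19 and 31 of 35 were measured. Alternatives were a further quantile normalization, a filter on dim genes, the mean of a gene's probe sets, a fit on the arrays of one comparison alone, a robust prior that follows intensity, array weights, blocking on replicate number, a minimum of 1.5-fold, and each array left out in turn. Promoter windows came from RefSeq (GRCh38.p14), and siRNA sequences were not used here.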

Additional observations from a re-analysis of the deposited data

Results flagged for a closer look

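The members called with the PAXIP1-AS1 siRNA, other than ITGAV, are listed because that change also differed from the change under each LOC440173 siRNA. A direct limma test of the difference, with all 10 arrays, gave these calls. It reuses the arrays behind the PAXIP1-AS1 call, so choosing members by that call favours a called difference. Over all genes 16.8% and 17.2% were called against siRNA 1 and siRNA 2, in either direction. For ITGA8 the PAXIP1-AS1 change exceeded the siRNA 1 change by 1.26 and the siRNA 2 change by 1.89 on the log2 scale, and both calls held in every alternative run other than the dim filter, which leaves the gene out. For LAMA4 the differences were 0.34 and 1.08, and for LAMB1, which fell with all 3 siRNAs, they were 0.33 and 0.58. Against siRNA 2 both calls held without each single array. Against siRNA 1 the LAMA4 call was lost without control 10 nM replicate 2, control 100 nM replicate 1 or any siRNA 1 or PAXIP1-AS1 array (adjusted p = 0.0698 to 0.105), and the LAMB1 call without siRNA 1 replicate 1, control 100 nM replicate 2 or PAXIP1-AS1 replicate 2 (adjusted p = 0.0506 to 0.0589). For the dim subunit ITGB8 they were 0.41 and 0.33. The ITGB8 call against siRNA 1 was lost without PAXIP1-AS1 replicate 1 (adjusted p = 0.0501) or with a robust prior that follows intensity (0.0637), and that against siRNA 2 with that prior (0.145) or without any single control 10 nM, siRNA 2 or PAXIP1-AS1 array or control 100 nM replicate 1 (0.0529 to 0.101). For LAMC1 the sign depended on the siRNA: 0.37 against siRNA 1 and -0.76 against siRNA 2, the first being lost without 5 single arrays (adjusted p = 0.0517 to 0.0771) or after a further quantile normalization (0.0504). Dose, target and control arrays all differ between these effects and cannot be told apart.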

How the results depend on the processing

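Calls kept in all alternatives other than the dim filter and the fold minimum were 15 of 21 with siRNA 1, 12 of 20 with siRNA 2, 10 of 22 between the siRNAs and 3 of 6 with the PAXIP1-AS1 siRNA. No named change that was called, in the fit used or in the alternative, reversed its direction there. Changes called in neither were not checked for direction. Leaving out 1 array at a time gave 16 to 32, 16 to 20, 13 to 24 and 3 to 6 called members, and 11 to 28 and 12 to 16 for the PAXIP1-AS1 effect minus the siRNA 1 and siRNA 2 effects (17 and 16 in the fit used). Leaving out dim genes gave 12, 10, 14, 3, 11 and 7 in that order, because fewer members were tested, and a 1.5-fold minimum gave 5, 10, 4, 3, 7 and 9. In a fit on the arrays of one comparison alone the counts were 12 with siRNA 2, 13 between the siRNAs and 3 with the PAXIP1-AS1 siRNA. The losses named for single members above are not complete. In that fit the calls of ITGA2, ITGAM, ITGB4 and COL1A1 with siRNA 1 were also lost. So were those of ITGA7 and ITGAE with siRNA 2 and of LAMA4 and ITGB8 with the PAXIP1-AS1 siRNA. The control dose comparison gave 0 in every alternative. With the replicate number as a block the counts were 36 (19 higher, 17 lower) with siRNA 1 and 29 for the PAXIP1-AS1 effect minus the siRNA 1 effect; the numbers share more than their group in most pairs of groups (correlations 0.29 to 0.53 across genes) but not with siRNA 1 (0.068 to 0.090), so they were not taken as pairs, although all 10 arrays matched their own number best. Under the replicate block the siRNA 1 change of ITGA8 was called (adjusted p = 0.0311). Counts over all genes ranged from 1044 to 6739 with siRNA 1, 1220 to 6329 with siRNA 2, 1944 to 7777 between the siRNAs and 110 to 1879 with the PAXIP1-AS1 siRNA, and from 1072 to 4291 and 1153 to 3990 for the 2 differences of effects. Of the 4 lists of other genes, the counts called with siRNA 1 ranged from 3 to 22, those with siRNA 2 from 3 to 18 and those with the PAXIP1-AS1 siRNA from 0 to 5 per list. Apart from the dim filter and the fold minimum, the cause was not tested. Of the 83 members 64 lie below the median gene level, where RMA compresses changes.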
